A study of Homo sapiens with 6 samples.

Results

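The RGS genes encode regulators of G protein signalling, and 10 of them were followed here: RGS2, RGS3, RGS4, RGS5, RGS10, RGS12, RGS14, RGS16, RGS19 and RGS20. They were found by symbol among 34594 entries measured on every array, and each symbol matched 1 entry. The genes were chosen by name with the values of all 6 arrays in view, so every intensity and difference of theirs counts as used in the choice. Their levels and differences are therefore given as a description, with no test. Each sample was 1 Illumina bead array of RNA from a subclone of PC-3M, an established human line derived from PC-3 prostate cancer cells that forms metastases. The subclones were 1E8 and 2B4, of which 1E8 is the more metastatic. Each subclone gave a control without added ATP and cultures kept in 100 µM ATP, taken after 6 h and 12 h, all in medium with fetal bovine serum. Every group held 1 array, without replicates. How long the controls were kept is not in the labels, so ATP and culture time cannot be told apart in any difference from a control.

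A G protein passes a signal from a receptor at the cell surface while its alpha subunit holds GTP. An RGS protein carries a domain, the RGS box, that speeds up hydrolysis of this GTP and so ends the signal. Extracellular ATP acts in part through P2Y receptors, which couple to such G proteins, and several RGS genes are known to be induced by the signals that their proteins later curb. RGS2, RGS3, RGS4, RGS5 and RGS16 belong to the R4 subfamily, RGS10, RGS12 and RGS14 to the R12 subfamily, and RGS19 and RGS20 to the RZ subfamily.

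The arrays held 1 intensity per entry, on a linear scale from which the authors had subtracted a background. A detection limit was set on each array from its own dim entries, and lay at 29.6 on the 1E8 control array and between 43.8 and 52.6 on the other 5. Between 9403 and 11239 entries were above the limit. The keratin genes KRT8, KRT18 and KRT19 and the epithelial adhesion gene EPCAM were above it on all 6 arrays, while CDH1 was under it on each. The prostate genes KLK2, KLK3 and TMPRSS2 were under the limit on every array, as were 5 of 5 leukocyte markers. Of 7 fibroblast and pericyte markers, 6 were under the limit on every array, and ACTA2 passed it on the 2B4 control array alone. The summed level of these 7 ranged from 47.1 to 59.0 in 1E8 and from 47.8 to 113 in 2B4. Of 4 endothelial markers, only PECAM1 was above the limit, on all 6 arrays.

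RGS2, RGS4, RGS10 and RGS19 passed the limit on each of the 6 arrays, and RGS16 on 2 of 6. The other 5 members, RGS3, RGS5, RGS12, RGS14 and RGS20, were under it on every array. Intensities of different genes come from different probes and were not set against each other.

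Promoter sequences are shown for RGS4 and RGS16, which were lower in 1E8 than in 2B4 on every array, and for RGS2, which was not. Each is a window of 300 bases, 250 before a transcription start and 50 from it, taken from RefSeq on GRCh38.p14 and written 5′ to 3′ on the strand of the gene. Capitals mark matches on either strand to 4 short motifs. The core of the cAMP response element was searched as TGACG, which the factor CREB binds. The TATA box, where the basal transcription machinery binds, was searched as TATAAA. The CCAAT box was searched by the letters of its name, and the GC box, bound by SP1, as GGGCGG. An AP-1 site (TGANTCA) was searched too and had no match in these windows. No marked matches overlap. RGS4 has 4 start sites in this annotation, and the window with the most matches is printed. RGS16 and RGS2 have 1 each. Which transcripts the array probes detect is not given in the sources used here.
RGS4, chr1:163069111-163069410, plus strand: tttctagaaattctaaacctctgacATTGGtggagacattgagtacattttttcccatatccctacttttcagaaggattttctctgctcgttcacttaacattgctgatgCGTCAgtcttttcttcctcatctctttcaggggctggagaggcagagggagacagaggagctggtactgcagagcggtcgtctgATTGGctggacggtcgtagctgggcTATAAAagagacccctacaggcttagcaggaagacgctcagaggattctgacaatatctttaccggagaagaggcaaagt
RGS16, chr1:182604340-182604639, minus strand: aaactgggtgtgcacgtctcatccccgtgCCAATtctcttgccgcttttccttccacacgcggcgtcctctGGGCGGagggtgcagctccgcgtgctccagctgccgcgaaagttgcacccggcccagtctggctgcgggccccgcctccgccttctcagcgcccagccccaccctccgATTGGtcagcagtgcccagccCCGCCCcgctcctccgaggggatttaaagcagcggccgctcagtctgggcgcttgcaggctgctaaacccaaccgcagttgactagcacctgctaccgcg
RGS2, chr1:192808789-192809088, plus strand: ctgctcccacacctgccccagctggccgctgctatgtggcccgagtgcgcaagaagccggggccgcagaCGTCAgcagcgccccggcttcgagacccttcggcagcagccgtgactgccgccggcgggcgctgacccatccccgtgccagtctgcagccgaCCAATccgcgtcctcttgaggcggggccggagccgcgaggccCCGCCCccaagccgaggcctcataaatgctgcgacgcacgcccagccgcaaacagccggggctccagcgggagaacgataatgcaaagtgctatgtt

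The printed RGS4 window held a TATA box at position 221, counted from 1 at the 5′ end. It also held 1 core of the cAMP response element and 2 CCAAT boxes. Its GC content was 47%, and the other 3 RGS4 windows lay between 40.7% and 50.3%. Those 3 windows held no TATA box, and the printed one was picked for having the most matches. The shares over all windows given below are therefore not a like comparison for it. The RGS16 window held 2 CCAAT and 2 GC boxes at a GC content of 67%, and the RGS2 window 1 cAMP response core, 1 CCAAT box and 1 GC box at 69.7%. Over 35116 promoter windows of the same length the median GC content was 58.7%, with quartiles of 47% and 68%. In these windows 24.6% held a cAMP response core, 11.5% a TATA box, 34.6% a CCAAT box, 45% a GC box and 7.71% an AP-1 site. A match describes the letters of the window and is not evidence of binding.

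RGS4, an R4 member that acts on Gi and Gq alpha subunits and whose protein is short-lived, stood furthest apart between the subclones. In 1E8 its intensity was 83.7 in the control, 79.4 at 6 h and 118 at 12 h of ATP. In 2B4 it was 1261 in the control, 839 at 6 h and 981 at 12 h. All 3 arrays of 2B4 were thus far above all 3 of 1E8, with no overlap. The intensity in 2B4 was 15.1 times that in 1E8 without ATP, 10.6 times at 6 h and 8.35 times at 12 h. On the log2(intensity + 16) scale used for all differences below, 1E8 minus 2B4 was -3.25 ± 0.16 (SE of the fit over 6 arrays), and 0.0901% of 11097 tested genes had a larger difference in either direction. The value lay between -3.42 and -3.03 when any 1 array was left out. Cell type markers differed between the same subclones. EPCAM (1.94 ± 0.15, limma adjusted p = 0.000653) and KRT8 (1.01 ± 0.20, adjusted p = 0.0189) were higher in 1E8, while KRT18 (-0.22 ± 0.11) and KRT19 (-0.35 ± 0.11) did not pass. ACTA2, above the limit on 1 array, was at -1.01 ± 0.12. Their part in the RGS4 difference was not tested.

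RGS16, an R4 relative of RGS4 that is known to be induced by many stimuli, was also higher in 2B4 on every array. Its intensity was 18.9, 11.4 and 10.0 in the control, 6 h and 12 h arrays of 1E8, all under the limit. In 2B4 it was 57.3 in the control, 28.0 at 6 h and 53.4 at 12 h. Of the 2B4 arrays only the control and the 12 h array passed the limit, by factors of 1.09 and 1.22. The 3 values of 2B4 were all above those of 1E8, with a log2 difference of -1.06 ± 0.15, but the 1E8 side of this difference is background. It shrank to -0.59 with an offset of 50 before the logarithm and to -0.10 with all values below 50 set to 50.

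RGS2, known for its preference for Gq alpha subunits, was nearly the same in the 2 controls. Its intensity was 1796 in the 1E8 control and 1715 in the 2B4 control. With ATP it was 1290 at 6 h and 1016 at 12 h in 1E8, against 1679 and 1668 in 2B4. The 1E8 control was the highest of all 6 arrays and the 1E8 ATP arrays were the lowest, so the subclones overlapped. The log2 difference of 1E8 minus 2B4 was 0.07 without ATP, -0.38 at 6 h and -0.71 at 12 h, and -0.34 ± 0.16 over all arrays.

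RGS10, a small R12 member that is known from immune cells and microglia, had intensities of 204, 154 and 183 in the control, 6 h and 12 h arrays of 1E8. In 2B4 these were 248, 202 and 266. Within each condition the 2B4 array was higher, while over all arrays the subclones overlapped, since the 1E8 control was just above the 2B4 array at 6 h. The log2 difference of 1E8 minus 2B4 was -0.38 ± 0.11.

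RGS19, an RZ member also known as GAIP that binds Gi alpha subunits, varied least among the detected members. Its intensity was 182, 204 and 185 in 1E8 and 179, 168 and 211 in 2B4, in the order control, 6 h and 12 h. These ranges overlapped, and 1E8 minus 2B4 was 0.03 ± 0.12.

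**Figure D1:**
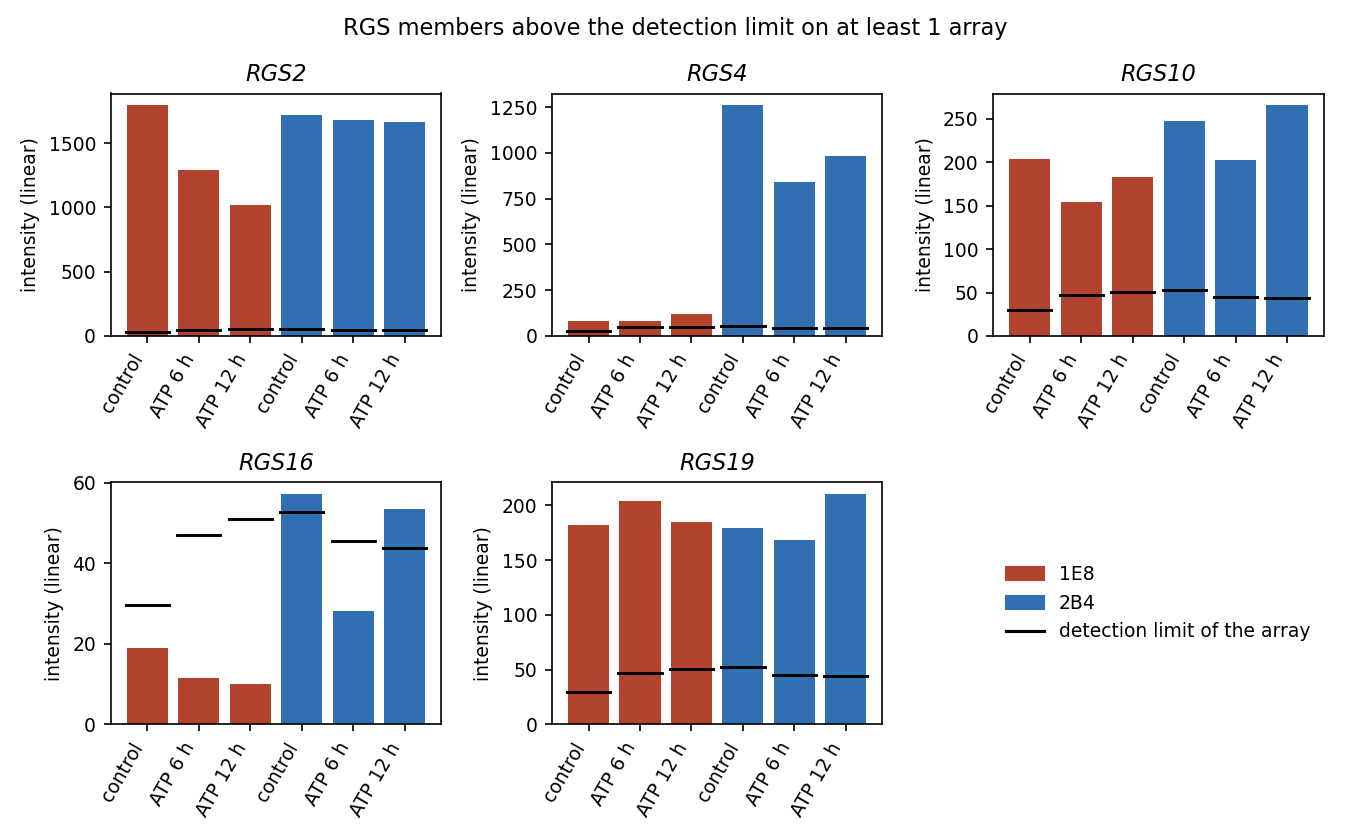
Intensity (linear, from 0) of the 5 RGS genes above the detection limit on at least 1 array, with 1 bar per array, red for 1E8 and blue for 2B4, and a black line for the limit of each array. RGS4 is at 79.4 to 118 in 1E8 and 839 to 1261 in 2B4, RGS16 is above the limit on 2 arrays of 2B4, and RGS2 is at 1016 in 1E8 at 12 h of ATP against 1796 in its control.

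The 5 members under the limit gave no level that could be compared. RGS12, an R12 member with further domains that bind Ras and Gi alpha subunits, came nearest, between 10.4 and 19.0, or at most 0.488 of the limit on its array. RGS20, the other RZ member, lay between -6.66 and 10.7. RGS3 and RGS14 lay between -0.62 and 3.29 and between -6.72 and 2.55. RGS5, known as a pericyte marker, was between -4.47 and 5.71 on all 6 arrays. These values lie within the background of the arrays, whose widths were 8.73 to 15.3.

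**Figure D2:**
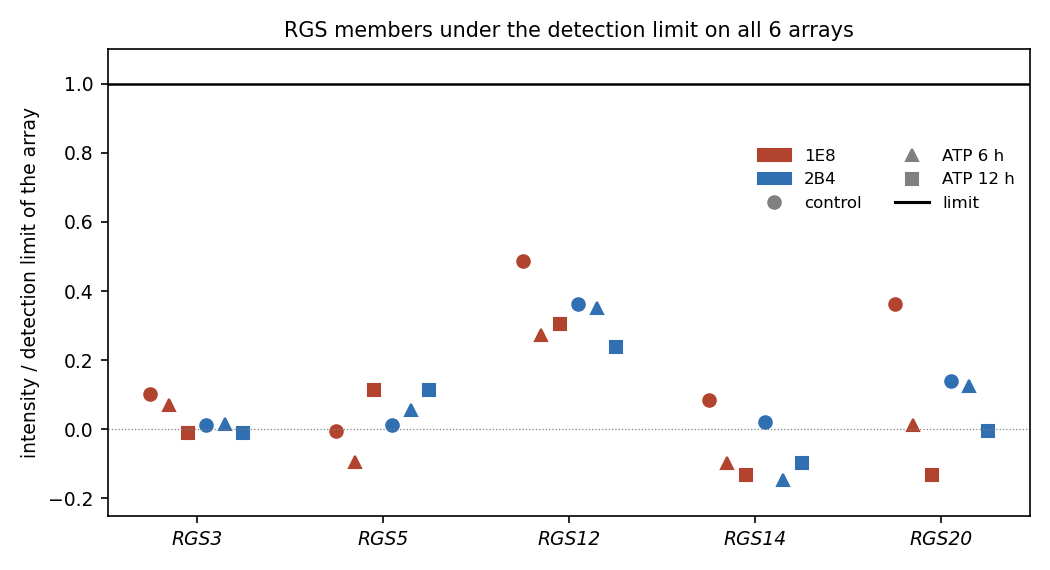
Intensity divided by the detection limit of the same array for the 5 RGS genes under the limit on all 6 arrays, with 1 point per array, coloured by subclone and shaped by condition. All 30 points lie below 1, and the highest is RGS12 on the 1E8 control array at 0.488.

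The fitted subclone and ATP differences came from 1 limma fit with subclone and condition as terms. It covered the 11097 genes above the limit on at least 1 array. The difference in ATP response between subclones came from a further fit with an added term. Differences within 1 condition, or of 1 ATP array from its control, are subtractions between 2 single arrays. Between subclones, 17.1% of all tested genes were past a Benjamini-Hochberg adjusted p of 0.05, 7.95% lower in 1E8, and 33.3% had an unadjusted p under 0.05. RGS4 and RGS16 were higher in 2B4 with no overlap of arrays, as were 17.3% of all tested genes. Since the members were chosen with these values known, nothing is read from this count, and RGS16 entered the fit only through 2B4, where it is high. The median difference of the 5 was -0.38, against 0.01 over all tested genes, and for the same reasons nothing is read from it. The threshold itself depended on the filter, since 0 of 30835 genes passed it when dim genes were kept in the fit, with 4567 at an unadjusted p under 0.05.

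With ATP, 0 of 11097 genes passed (0% called), while 1132 (10.2%) had an unadjusted p under 0.05, and none of the members was 2-fold from its control on any of the 4 ATP arrays. In 1E8, 0.514% of tested genes lay at least 2-fold above control after 6 h and 0.324% after 12 h, while 0.82% and 0.514% lay as far below it. In 2B4 the shares were 0.27% and 0.369% above, and 0.324% and 0.306% below. RGS2 had its change in 1E8, at -0.47 at 6 h and -0.81 at 12 h, against -0.03 and -0.04 in 2B4. The additive fit averages these to -0.34 ± 0.17, which became -0.03 without the 1E8 control and -0.64 without the 2B4 control. Set against each other, the response of 1E8 was below that of 2B4 by a difference of -0.61 ± 0.21. The median of this contrast over all tested genes was -0.07. For RGS2 it was -0.47 with arrays scaled to 1 median and -0.51 with quantile normalization.

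RGS4 lay on opposite sides of its control in the 2 subclones at 12 h. In 2B4 the difference from control was -0.58 at 6 h and -0.36 at 12 h, and in 1E8 it was -0.06 and 0.42. Its mean ATP difference of -0.14 ± 0.17 turned to 0.18 without the 2B4 control and became -0.47 without the 1E8 control. The response of 1E8 less that of 2B4 came to 0.65 ± 0.20, or 0.76 with arrays scaled to 1 median and 0.77 with quantile normalization. In this contrast 0.00901% of all genes were called, and 18.8% had an unadjusted p under 0.05.

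RGS16 was under its control in each of the 4 ATP cultures, with differences of -0.35 and -0.42 in 1E8 and -0.74 and -0.08 in 2B4, for 6 h and 12 h. Its mean difference was -0.40 ± 0.16, with values under the limit on 4 of the 6 arrays. RGS2 and RGS16 were the tested members that were lower on all 4 ATP arrays, as were 17.9% of all tested genes. None of the 5 was higher on all 4, as 10.2% of all tested genes were. RGS10 was lower at 6 h in both subclones, at -0.37 in 1E8 and -0.27 in 2B4, and at -0.14 and 0.10 at 12 h. RGS19 lay between -0.09 and 0.21 on the 4 arrays. At 6 h the fitted differences were -0.54 for RGS16, -0.32 for RGS4 and RGS10, -0.25 for RGS2 and 0.03 for RGS19. Single arrays decided several of these. RGS2 at 6 h was 0.05 without the 1E8 control and -0.56 without the 2B4 control. RGS4 was 0.002 without the 2B4 control and -0.65 without the 1E8 control. RGS16 was -0.26 without the 2B4 array of 6 h and -0.82 without that of 1E8, and -0.10 with values below 50 set to 50. At 12 h RGS2 was at -0.43 ± 0.20, and lay between -0.73 without the 2B4 control and -0.12 without the 1E8 control. RGS16 was at -0.25, and lay between -0.52 and 0.02 without the 12 h array of 2B4 or of 1E8. RGS4 was at 0.03, and lay between -0.29 without the 1E8 control and 0.36 without the 2B4 control. The median over the 5 was -0.32 at 6 h and -0.02 at 12 h, against -0.04 over all genes at both times. Nothing is read from these medians, since the members were chosen with the values known. No gene was called at either time (0%), with 1087 (9.8%) and 1014 (9.14%) at an unadjusted p under 0.05.

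**Figure D3:**
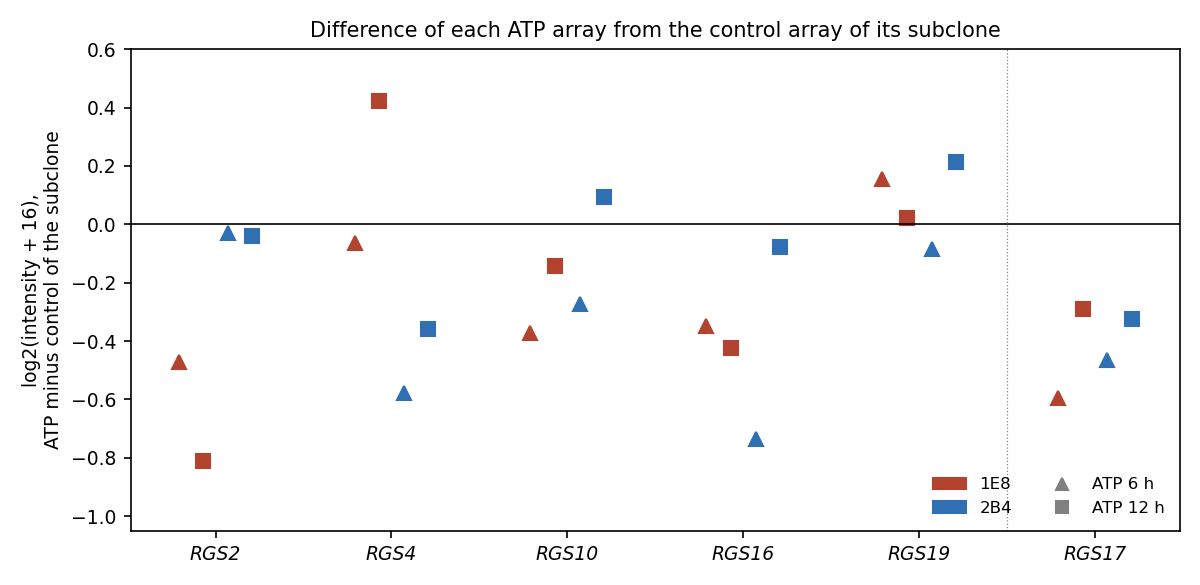
Difference in log2(intensity + 16) between each ATP array and the control array of its subclone, for the 5 detected RGS genes and, right of the dotted line, RGS17. Triangles are 6 h and squares 12 h, red for 1E8 and blue for 2B4. RGS2 lies at -0.47 and -0.81 in 1E8 and near 0 in 2B4, and RGS17 lies below 0 on all 4 arrays.

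Of a list of 22 further genes, 20 with an RGS box and the binding proteins RGS7BP and RGS9BP, 7 were tested. RGS17, the RZ relative of RGS19 and RGS20, was above the limit on all 6 arrays. Its intensity was 366 in the 1E8 control, 237 at 6 h and 296 at 12 h, and 324, 230 and 256 in 2B4. It was thus lower on all 4 ATP arrays, by a mean log2 of -0.42 ± 0.11, and the limma adjusted p was 0.332. SNX13, a sorting nexin with an RGS box, was likewise lower on all 4 (-0.66 ± 0.12, adjusted p = 0.224). Between subclones SNX13 was the 1 gene of this list that passed, higher in 1E8 by 0.53 ± 0.11 (limma adjusted p = 0.021), and RGS17 was at 0.14 ± 0.11. Without either array of 6 h or of 12 h the difference in SNX13 was 0.57 or 0.46 and no longer passed (adjusted p = 0.0684 and 0.118). The other members of the family on the array, RGS1, RGS6, RGS7, RGS8, RGS9, RGS11, RGS13, RGS18, RGS21 and RGS22, were under the limit on every array.

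Around the RGS genes, 7 lists of G protein genes held 102 genes, of which 44 were tested, this RGS-box list included. Between subclones 6 of the 44 were past the threshold and higher in 1E8 and 2 lower, beside 9.17% and 7.95% of all tested genes. Of the 6, ADCY8, PLCB1 and P2RY2 entered the fit only through 1E8 arrays, so their values are given without a test. Nothing is read from the count of 6 for that reason. All 8 calls ended with values below 50 set to 50, and also with dim genes kept in the fit. Of 7 tested alpha subunits, GNA11, which couples receptors to phospholipase C, was lower in 1E8 (-0.46 ± 0.12, limma adjusted p = 0.0465). Leaving out any 1 array ended this call, at -0.34 without either control, -0.49 without either 6 h array and -0.54 without either 12 h array (adjusted p = 0.0643, 0.137 and 0.0889). Of 10 tested beta and gamma subunits, GNG11 was higher, at 591, 663 and 711 in 1E8 and 260, 325 and 455 in 2B4 (0.92 ± 0.13, adjusted p = 0.00693). These ranges did not overlap, the reverse of RGS4.

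Of 13 adenylyl cyclase and phospholipase C beta genes, which make the second messengers downstream of G proteins, 6 were tested. ADCY9 was higher in 1E8 (0.66 ± 0.16, limma adjusted p = 0.0333), while ADCY3, ADCY6 and ADCY7 did not pass. ADCY8 was at 0.73 and PLCB1 at 0.72, but ADCY8 was above the limit on the 1E8 control array alone and PLCB1 on 2 arrays of 1E8, so their 2B4 side is background. With values below 50 set to 50 they were at 0.023 and 0.37. Of 4 tested receptor kinases and arrestins, ARRB1, which uncouples receptors from G proteins, was lower in 1E8 (-0.55 ± 0.14, adjusted p = 0.0398), a call that ended without either control (-0.40, adjusted p = 0.0632) or either 6 h array (-0.54, adjusted p = 0.103). Of 3 tested P2Y and adenosine receptors, the ATP receptor P2RY2 had a fitted difference of 0.74. P2RY2 read 30.7, 26.7 and 33.0 in 1E8 and 12.5, 7.74 and 14.7 in 2B4, and it passed the limit on the 1E8 control array alone, where the limit was lowest. Its difference was 0 with values below 50 set to 50.

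Of 7 tested further regulators of G proteins, 0 were called in limma. RASD1, a Ras-like activator of Gi, had a fitted difference of 1.05, the largest of the 7, but passed the limit on the 1E8 control array alone. It thus entered the fit only through the side where it is high, and its 2B4 side is background. Its value is therefore given without a test. Among those above the limit on all 6 arrays, the largest were the chaperone RIC8B (0.40 ± 0.16) and the alpha subunit binder GPSM1 (0.37 ± 0.12). PDCL (-0.20 ± 0.13) and RIC8A (-0.16 ± 0.12) came next. With ATP 0 of the 44 passed, at 6 h, at 12 h or over both, and 4 had an unadjusted p under 0.05 over both times, 1 higher and 3 lower. Above their control on all 4 ATP arrays were 4 of the 44, beside 10.2% of all tested genes. These were GNAI2 (0.21 ± 0.11), GNG11 (0.38 ± 0.14), GNG10 (0.10 ± 0.11) and ADCY6 (0.20 ± 0.12). Below it on all 4 were 7, beside 17.9% of all tested genes, so nothing is read from the count. These were RGS17, SNX13, ADCY3 (-0.27 ± 0.12), ARHGEF12 (-0.24 ± 0.12), GNG7 (-0.26 ± 0.11), ADCY8 (-0.49) and GRK6 (-0.24). ADCY8 and GRK6 passed the limit on the 1E8 control array alone, so they entered the fit only through a control. Their values are therefore given without a test.

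**Figure D4:**
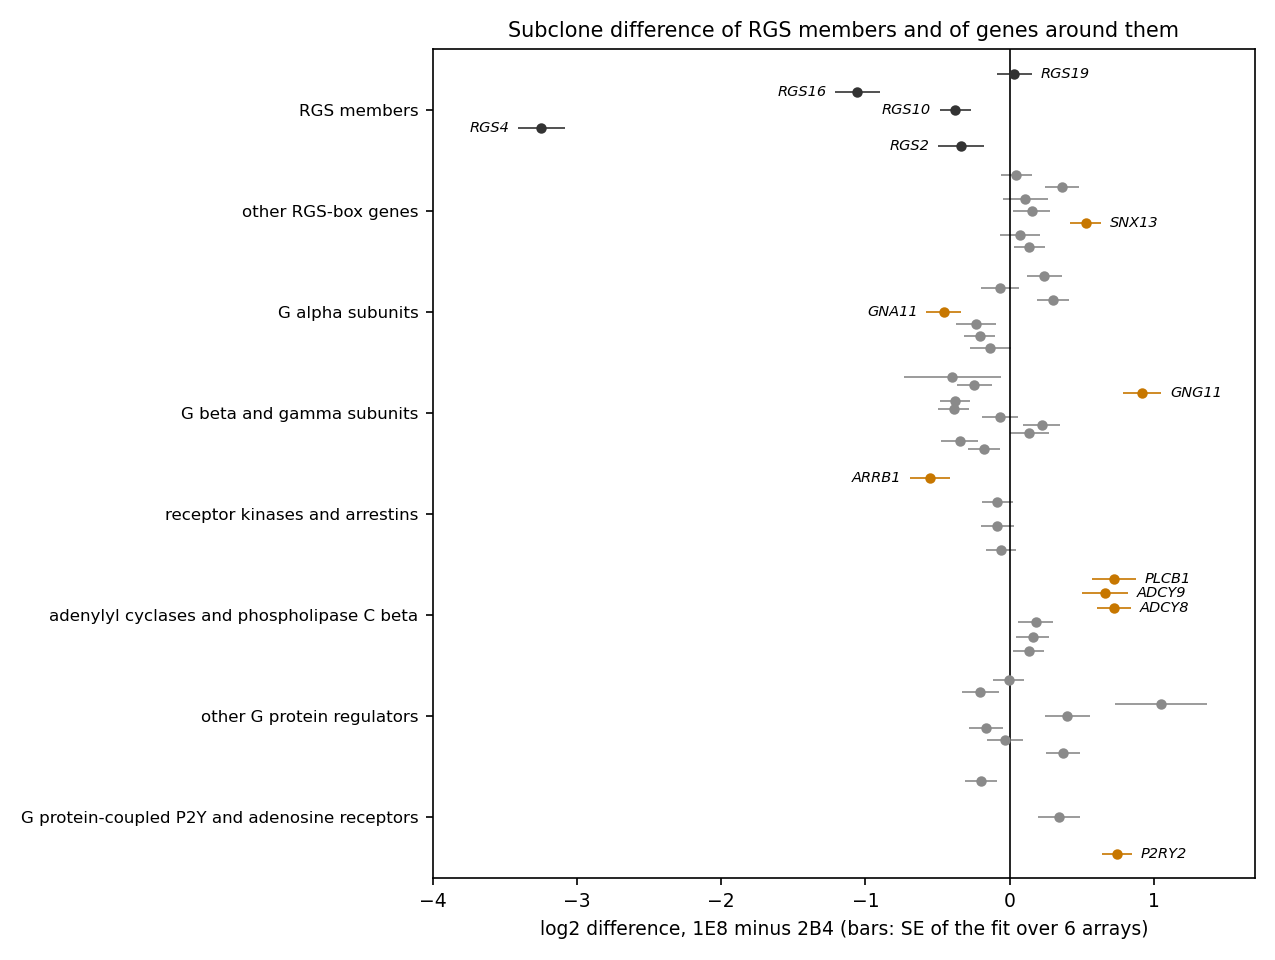
Fitted log2 difference of 1E8 minus 2B4 with its SE over 6 arrays, for the 5 detected RGS genes (black) and the 44 tested genes of 7 G protein lists. Orange points with names are list genes with an adjusted p under 0.05, of which ADCY8, PLCB1 and P2RY2 passed the limit on 1E8 arrays only. RGS4 at -3.25 lies left of all others, and GNG11, ADCY8, ADCY9, PLCB1, P2RY2 and SNX13 lie on the 1E8 side.

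The patterns most like those of the members were looked for among 8489 genes above the limit on all 6 arrays, as a description over 6 arrays that the genes share. RGS4 was most like CENPT (deposited as C16ORF56, r = 0.999), the amyloid precursor gene APP (0.998) and the membrane scaffold gene MPP1 (0.997), and 34 genes had r over 0.99. MPP1, for example, read 104, 106 and 120 in 1E8 and 272, 246 and 279 in 2B4, so that these correlations rest on the gap between subclones. RGS16 was most like PACSIN3 (0.997), BRI3 (0.997) and SPATA7 (0.9902). RGS2 was most like the actin-binding thymosin TMSB10 (0.9899), KCTD10 (0.989) and THYN1 (0.986). THYN1 read 488, 393 and 361 in 1E8 and 460, 460 and 450 in 2B4, the same order as RGS2 within 1E8.

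In the RefSeq order of GRCh38.p14 RGS4 lies between CCDC190 and RGS5, both under the limit on every array, and beyond RGS5 NUF2 had a subclone difference of -0.50 ± 0.11. RGS8, a neighbour of RGS16, was under the limit on every array. The neighbours of RGS2 were RGS13, under the limit on every array, and UCHL5, at 0.02 ± 0.14.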

How the data were processed

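RNA from 6 cultures was labelled as cRNA and hybridised to Illumina bead arrays, per the labels' protocols. The deposited intensity values are linear. The authors' values had a background subtracted, since 24.0% to 25.5% of entries lie below 0 on each array, and array means were 193 to 194. Another table has 6 signal columns that could be tied to no sample by name, and it was left out.

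Negative intensities were raised to 0 before log2(intensity + 16). The limit of an array was the peak of its dim values plus 3 widths of the values below that peak. Left out were 3270 sequence clusters and 489 entries of a gene with a brighter entry. Of all names, 17757 were current symbols, 3303 older synonyms and 13534 unmatched in RefSeq for GRCh38.p14. limma 3.58.1 in R 4.3.3 fitted subclone and condition over all 6 arrays, with 2 residual degrees of freedom, or 1 with a term for the difference in ATP response between subclones. With no separate cultures per group, no spread between replicates could be measured. SEs and p-values of the additive fit come from how poorly summed subclone and condition terms describe the 6 arrays. The eBayes step of limma draws this misfit toward a value shared over all tested genes. An SE is therefore not the scatter of its own gene alone. Real differences in ATP response between subclones enter this misfit together with technical scatter, and cannot be separated from it. The number of arrays limits the precision. The subclone contrast of the additive model was tested on simulated arrays, while the ATP contrasts and the difference in ATP response were not.

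Some marker and neighbouring genes are not reported here. The members and gene lists were chosen with earlier results of these data known. Named list genes were those past the threshold, otherwise up to 4 with the largest subclone difference above the limit on all 6 arrays, and up to 2 with the largest ATP difference of 1 sign on all 4 ATP arrays. Alternatives were another offset, a floor, other scalings and filters, a variance trend, a 1.5-fold threshold and leaving out each array. For software, slides and scan order, nothing is given in the sources used here.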

Additional observations from a re-analysis of the deposited data

Results flagged for a closer look

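Of 28 G protein list genes above the limit on all 6 arrays, 10 had ATP arrays on opposite sides of their controls. Both ATP arrays of 1E8 lay on one side and both of 2B4 on the other. This was so for 30% of all 8489 genes above the limit on all 6 arrays, so nothing is read from the count. The values are the response of 1E8 less that of 2B4, tested with limma over 6 arrays. Higher in 1E8 and lower in 2B4 were the anchor protein AKAP10 (0.38 ± 0.28), GNAS (0.33 ± 0.18), GNB2 (0.41 ± 0.18), ADCY7 (0.36 ± 0.18) and GIPC1, which binds RGS19 (0.16 ± 0.18). Lower in 1E8 and higher in 2B4 were GNA13 (-0.43 ± 0.18), GNG5 (-0.37 ± 0.19), RIC8A (-0.26 ± 0.18), RIC8B (-0.64 ± 0.19) and PDCL (-0.39 ± 0.18). The adjusted p of these 10 lay between 0.194 for RIC8B and 0.645 for GIPC1, so none passed the threshold. No RGS member had this pattern.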

How the results depend on the processing

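With every group at 1 array, no alternative removes the limit that each level rests on 1 hybridisation. No paired analysis was possible because every group holds replicate 1 alone. The additive fit itself already compares the subclones within each condition. The count of genes called between subclones was 1900, and it was 621 with values below 50 set to 50, 0 with no filter on dim genes (4567 at an unadjusted p under 0.05) and 916 to 2564 without 1 array, where leaving out either array of a condition gave the same value because the other then carries no information on the subclones. Without 1 array the ATP calls were 0 to 57 over both times, 5 to 49 at 6 h and 0 to 24 at 12 h, and with a variance trend 1 gene was called at 6 h. The contrast of ATP effects had 1 call, and 364 with an offset of 50, 6 with arrays scaled to 1 median, 283 where genes had to pass the limit 6 times, 741 with a variance trend, and 0 with the floor, quantile normalization or no filter. At a 1.5-fold threshold 2 member values counted as different from control, RGS2 in 1E8 at 12 h and RGS16 in 2B4 at 6 h. Recomputed member values moved by less than the SE in 261 cases and by more in 49. The filters and the variance trend cannot change a gene's fitted difference, so their cases among the 261 were fixed in advance. Subclone values without either array of a condition are also counted as separate cases though they are the same. Without a control array the contrast of responses could not be fitted, and without an ATP array it has no residual degrees of freedom and so no test. RGS16 could not be given where genes had to pass the limit 6 times.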
